A study of Drosophila melanogaster with 42 samples.

Results

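Antimicrobial peptide, Bomanin, Turandot and peptidoglycan recognition genes were followed in whole Drosophila melanogaster carrying an ERR mutation and in controls. ERR encodes the fly estrogen-related receptor, a nuclear receptor. The genes were chosen by symbol alone: those named Att, Cec, Dpt, Drs, Def, Mtk or Dro (antimicrobial peptides, 18 genes), IM (8 genes), Tot (Turandots, 7 genes) and PGRP (13 genes). This gave 46 of the 15038 genes in the deposited counts, and no gene was listed under a Bom symbol. Of the 46, 43 passed the filter on low counts and were tested. TotF, PGRP-SC1a and PGRP-SC1b did not, and are described by level alone.

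The ERR mutant and the control were each sampled at 7 time points (WPP, then P1 to P4, then A1 and A6, in the labels' terms), with 3 libraries for each genotype and time point. Per the labels, animals were staged as WPP for the time course, and those of both genotypes were heat-treated on days 4 and 5 AEL. The genotypes differed in the presence or absence of an hsFLP transgene, a recombinase driven by a heat shock promoter. The labels do not say which group carried it, so effects of ERR, of the transgene and of any response to heat that differs between them cannot be told apart. The sources used here do not give the ERR allele or the sex, nor say that libraries of a group are separate animals or cultures. The p-values therefore measure the spread between these libraries, which may be technical.

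Flies answer microbes through 2 main signalling routes. In the Toll pathway, recognition proteins such as PGRP-SA start a protease cascade that frees the transcription factors Dif and dl, and Drosomycin (Drs) and the Bomanins are classical targets. In the Imd pathway, PGRP-LC and PGRP-LE sense peptidoglycan and activate Relish (Rel), which drives Diptericin, Attacin and Cecropin genes, while enzymatic family members such as PGRP-LB and PGRP-SB1 cut peptidoglycan. The Turandots are secreted humoral factors induced by heat, infection and other stress, in part through JAK-STAT and stress kinases. Many of these peptides are made in the fat body, in blood cells or in surface epithelia, and several are also expressed on a developmental schedule without infection. In RNA from whole animals, fewer cells of a type and less RNA per cell cannot be told apart.

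Library totals ranged from 4308848 to 7737140 counts, so 1 CPM, the unit used below (counts scaled to library size with TMM normalization), is a handful of counts in any library. ERR itself averaged 5.46 ± 0.821 CPM in A6 mutants and 35.6 ± 1.36 CPM in A6 controls (SD, n = 3 each), and its 3 mutant libraries lay below the 3 controls at every stage. Mutant P1 replicate 1 stood apart in male-enriched genes, with a summed level of 5.68 CPM, against 312 and 378.5 CPM in the other P1 mutants and 303 to 439.6 CPM in P1 controls. In that library 17.3% of all tested genes lay at least 2-fold below both other P1 mutants. In every other library the share below the rest of its group was at most 2.46%. P1 comparisons of the genotypes include mutant P1 replicate 1 unless it is stated as left out. Among the tested immune genes, 1 lay below in it, IM18. IM18 had 0.405 CPM in that library, against 8.10 and 4.94 CPM in the other P1 mutants and 4.79 to 5.85 CPM in P1 controls. IM18 shares exons on the same strand with CG10332, so its reads may be split between the 2 genes.

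The genes lie on chromosome arms 2L (3 genes), 2R (18), 3L (12), 3R (11) and X (2) (BDGP6, the assembly of dm6). TotA, TotC, TotB and TotZ stand side by side on 3R between positions 20871036 and 20878363, and TotX follows at 20904917 to 20905518 on the minus strand. PGRP-SB2 (3L, 16726541 to 16727288, plus strand) ends just before PGRP-SB1 (3L, 16727299 to 16727989, minus strand). Drsl2, Drsl3, Drsl4 and Drsl5 form a row on 3L between 3314349 and 3317144. CecA1 and CecA2, AttA and AttB, and PGRP-SC1a and PGRP-SC1b are near-identical copies whose counts may be divided uncertainly. PGRP-LD overlaps Pmi on its own strand, and AttC, DptB, PGRP-SD and PGRP-LF overlap a gene on the other strand. How strand was set in the counting is not stated in the sources used here.

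In controls, the stage of the highest level differed between genes, also within a role. Drs, Drsl2, Drsl5 and PGRP-SB2 were highest at WPP, DptA, Def, Dro and TotB at P1, and the IM peptides at A1 and A6. Of the 18 antimicrobial peptide genes, 8 had their highest control mean at P1 and 4 at WPP. Of the 8 IM genes, 6 peaked at A1 and 2 at A6. Of the 13 PGRP genes, 7 peaked at WPP and the others at P1, P4, A1 or A6. Of the 7 Turandots, 3 peaked at P1, 3 at A6 and 1 at WPP.

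**Figure D1:**
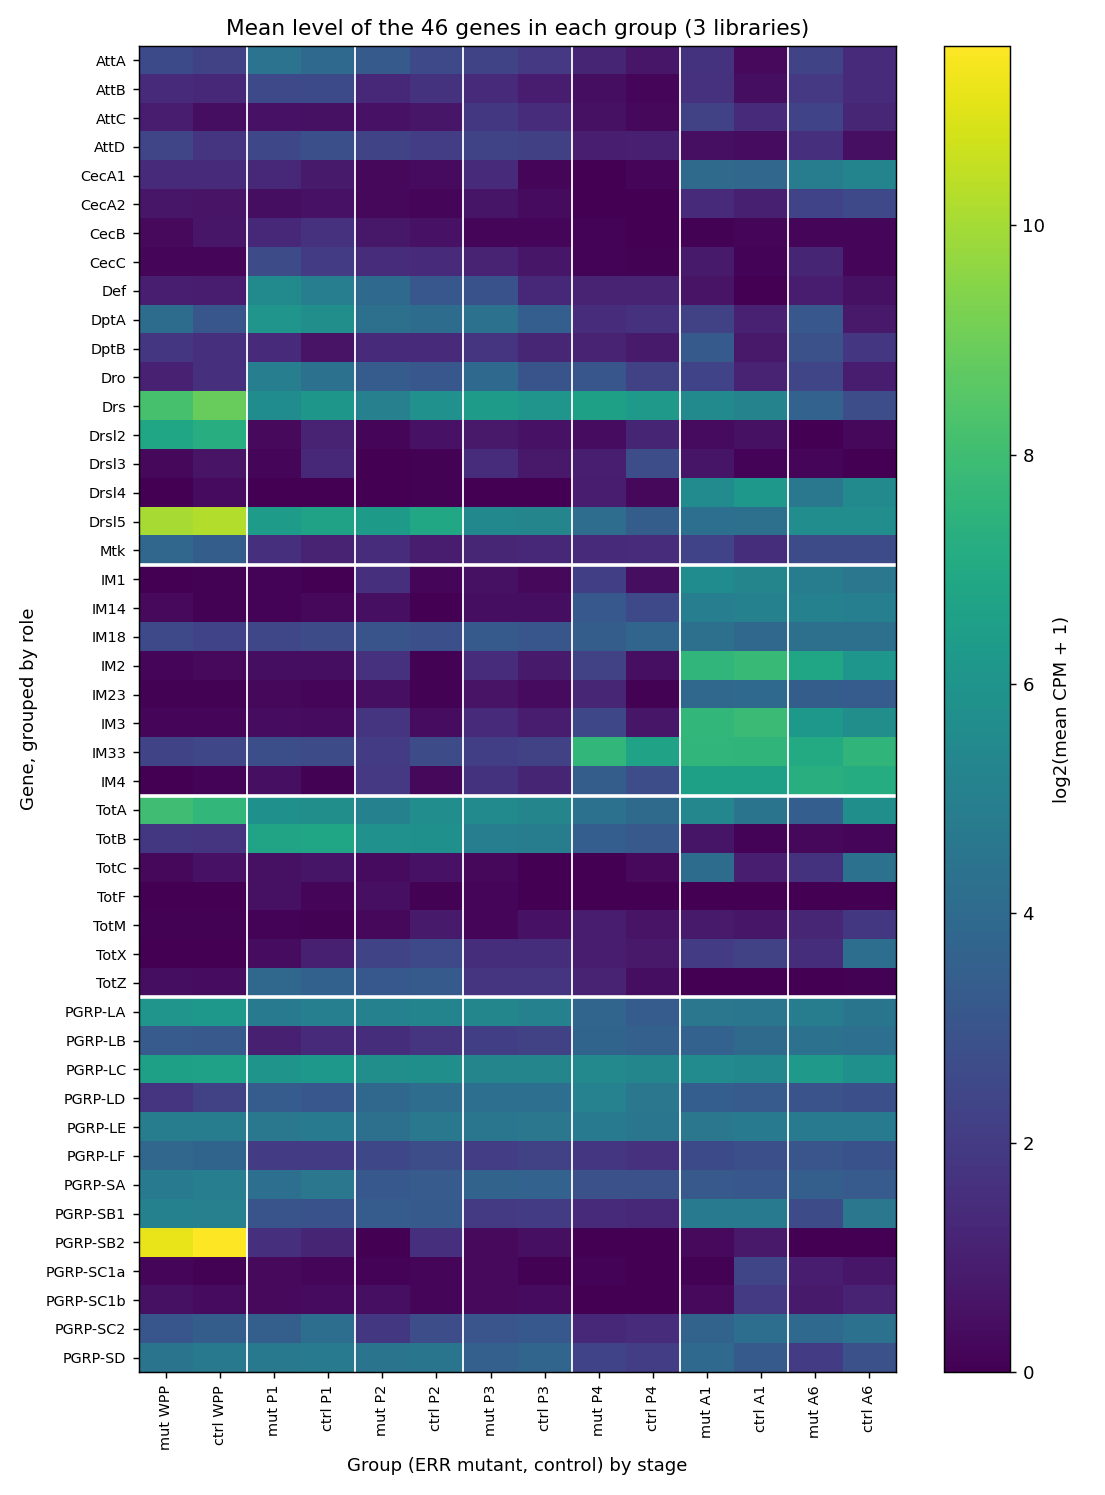
Mean level, as log2(CPM + 1), of each of the 46 genes (rows, in 4 blocks by role) in each of the 14 groups (columns, ERR mutant left of control at each stage). Drsl5 and PGRP-SB2 are brightest at WPP in both genotypes, and IM1, IM2, IM3 and IM23 are bright at A1 and A6, while IM33 is already bright at P4.

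At WPP, Drsl5, a Drosomycin-like peptide gene, had 994, 1195 and 1018 CPM in mutants, against 1202, 1156 and 1253 CPM in controls. PGRP-SB2 had 2078, 2535 and 2288 CPM in mutants, against 2689, 3490 and 2903 CPM in controls. The 3 mutant libraries of PGRP-SB2 were all lower than the 3 controls, but the difference did not pass the test (log2 fold change -0.40, SE 0.466, adjusted p = 1). That test shares 1 estimate of spread per gene over all stages, and PGRP-SB2 had counts in 21 of the 42 libraries. The SE therefore does not measure the spread at WPP alone, and equal levels are not concluded. Drs, the antifungal peptide Drosomycin, had 277, 371 and 233 CPM in mutants, against 452, 590.1 and 369 CPM in controls, and the groups overlapped. TotA, the founding Turandot, had 282.5, 278 and 207 CPM in mutants, against 259, 158 and 183 CPM in controls, also overlapping. Per length, in the deposited FPKM, Drsl5 reached 5137 ± 514 in WPP mutants and 5875 ± 326 in WPP controls, and PGRP-SB2 reached 4010 ± 403 in WPP mutants and 5327 ± 712 in WPP controls (SD, n = 3 each). These were the 2 highest FPKM levels of any immune gene at WPP, and the control levels of the 2 genes differed by less than the SD of PGRP-SB2.

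At P1, Drs, Drsl2, Drsl5 and Mtk were lower and several other peptide genes were higher in controls. Of the 18 antimicrobial peptide genes, 6 were called higher and 4 lower than at WPP. Mtk had 1.47, 1.11 and 0.910 CPM in P1 controls, against 8.93, 13.6 and 6.09 CPM in WPP controls. Of the 43 genes, 11 were higher and 11 lower in P1 controls than in WPP controls, against 25.6% of all tested genes higher and 21.1% lower. PGRP-SB2 fell to 3.56, 0 and 0.390 CPM in P1 controls, against 2689 to 3490 CPM in WPP controls (2108-fold, adjusted p = 6.48e-11). Drsl5 fell 12.05-fold to 68.0 to 129.9 CPM, Drsl2 fell 116.5-fold to 0.780 to 1.74 CPM, and Drs fell 6.84-fold to 50.7 to 90.8 CPM. Def, a defensin active against Gram-positive bacteria, had 26.8, 28.6 and 33.4 CPM in P1 controls, against 1.24, 0.920 and 0.329 CPM in WPP controls (log2 fold change 5.09, SE 0.516, adjusted p = 9.27e-10). The Imd target DptA had 49.9, 43 and 62.6 CPM in P1 controls, against 13.7, 2.45 and 6.42 CPM in WPP controls (adjusted p = 0.00503). Dro, AttA, CecB and CecC also rose, by 3.41-fold for CecB to 17.7-fold for CecC. DptB, the neighbour of DptA, had 0.860, 0.158 and 0.520 CPM in P1 controls, against 3.30, 1.23 and 1.48 CPM in WPP controls, lower in all 3 libraries without passing the test (adjusted p = 0.184).

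The Turandot cluster split at the same step. TotA fell to 63.9, 51.1 and 41.2 CPM in P1 controls, against 259, 158 and 183 CPM in WPP controls (3.84-fold, adjusted p = 0.00179). TotB rose to 122, 108 and 114.9 CPM in P1 controls, against 2.06, 2.76 and 2.47 CPM in WPP controls (47.2-fold, adjusted p = 1.28e-15). Of the genes that lie beside them, TotZ rose to 9.82, 7.75 and 15.7 CPM, against 0.275 to 0.329 CPM at WPP, while TotC stayed at or under 0.982 CPM in every control library of both stages. TotX had no counts in WPP controls and 0.632 to 1.72 CPM in P1 controls, at least 7.18-fold higher when the WPP group is set at 3 counts in all. At P1 the genotypes overlapped for TotB, at 115.3, 108 and 96.6 CPM in mutants, against 122, 108 and 114.9 CPM in controls.

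At each step from P1 to P4, more of the genes that passed were lower than higher in controls, which was also so over all genes. At each of these steps the shares of immune genes called higher and lower lay under those of all genes. At P2, 4 of 43 genes were higher and 7 lower than at P1, against 21% and 23.8% of all genes. Def fell at P2 (3.78-fold) and again at P3 (5.23-fold), and TotB fell at each of P2, P3 and P4 (2.10-fold, 1.89-fold and 3.44-fold). At P3, 1 gene was higher and 8 were lower than at P2, against 15.6% and 20.9% of all genes. That 1 gene, IM14, rested on 5 counts in P3 controls and 0 in P2 controls. At P4, 3 genes were higher and 7 lower than at P3, against 17.3% and 20.2% of all genes. The 3 were IM33, IM14 and PGRP-LB, an amidase that degrades peptidoglycan and restrains the Imd response. IM33 had 60.4, 109 and 130.5 CPM in P4 controls, against 3.196, 5.45 and 2.66 CPM in P3 controls (26.7-fold, adjusted p = 9.19e-16). PGRP-LA and PGRP-SD, both linked to sensing, fell by 3.56-fold and 3.75-fold at that step. PGRP-LE, an intracellular sensor of the Imd route, changed little: its control libraries at all 7 stages lay between 20.5 and 29.8 CPM, and none of the 6 control steps passed for it.

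At A1 most IM genes rose, some from near 0 and some from levels already reached at P4. Of the 43 genes, 18 were higher and 5 lower in A1 controls than in P4 controls, against 16.2% of all genes higher and 22.7% lower. Of the 8 IM genes, 7 rose and IM18 did not (adjusted p = 0.843). Their median log2 fold change was 5.30, or 5.14 with IM23 set at its bound of 3 counts, against 0.03 over all genes. IM2 (BomS2 in the current annotation) had 233, 294.6 and 162 CPM in A1 controls, against 0.717, 0.190 and 0.211 CPM in P4 controls. IM3 (BomS3), a second short Bomanin, had 220.6, 319 and 164 CPM in A1 controls, against 0.897, 0.381 and 0.634 CPM in P4 controls. IM4 and IM14 (Dso1 and Dso2), a pair of peptides described as antifungal in this species, rose 16.7-fold and 6.61-fold. Drsl4 had 65.5, 72.0 and 72.1 CPM in A1 controls, against 0.359, 0 and 0.211 CPM in P4 controls, a group sum of 3 counts. CecA1, a cecropin gene, had 10.1 to 15.9 CPM in A1 controls, against at most 0.211 CPM in P4 controls. Def was lower, with 0 counts in A1 controls and 18 counts in P4 controls, at least 5.43-fold.

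Of the 11 tested PGRP genes, 6 rose and 1 fell at A1 in controls, against 16.2% of all genes higher and 22.7% lower. PGRP-SB1, a peptidoglycan-cutting amidase, had 22.7, 27.95 and 25.6 CPM in A1 controls, against 0.897, 2.09 and 1.48 CPM in P4 controls (16.9-fold, adjusted p = 8.18e-11). PGRP-SC2, a secreted amidase, rose 9.37-fold to 13.2, 9.18 and 28.6 CPM. Its copies PGRP-SC1a and PGRP-SC1b had no counts in P4 controls, and 11.8 and 8.18 CPM in A1 control replicate 3, against at most 1.02 CPM in the other A1 controls. Midgut protease and amylase markers, a list of 10 genes, summed to 3603 CPM in that library and to 1849 and 2103 CPM in the other A1 controls, and their part in these values was not tested.

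Between A1 and A6 controls, 6 of 43 genes were higher and 3 lower, against 9.65% and 14.7% of all genes. IM2 and IM3 fell (3.42-fold and 4.497-fold) while IM33, IM4 and IM14 did not pass. Drs fell 6.24-fold to 5.34, 5.11 and 6.38 CPM, its lowest control level. Cecropins act mainly against Gram-negative bacteria, and CecA1 rose 2.82-fold to 35.7, 39.6 and 34.1 CPM. TotX rose to 16.5, 9.13 and 25.2 CPM in A6 controls, against 2.64, 2.45 and 6.24 CPM in A1 controls (adjusted p = 3.37e-04). TotC had 11.6, 2.19 and 42.2 CPM in A6 controls, against 0.660, 0.204 and 1.94 CPM in A1 controls (adjusted p = 0.00643). Per length, IM33 led at A6, with 839.7 ± 56.0 FPKM in mutants and 1155 ± 24.2 FPKM in controls (SD, n = 3 each).

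**Figure D2:**
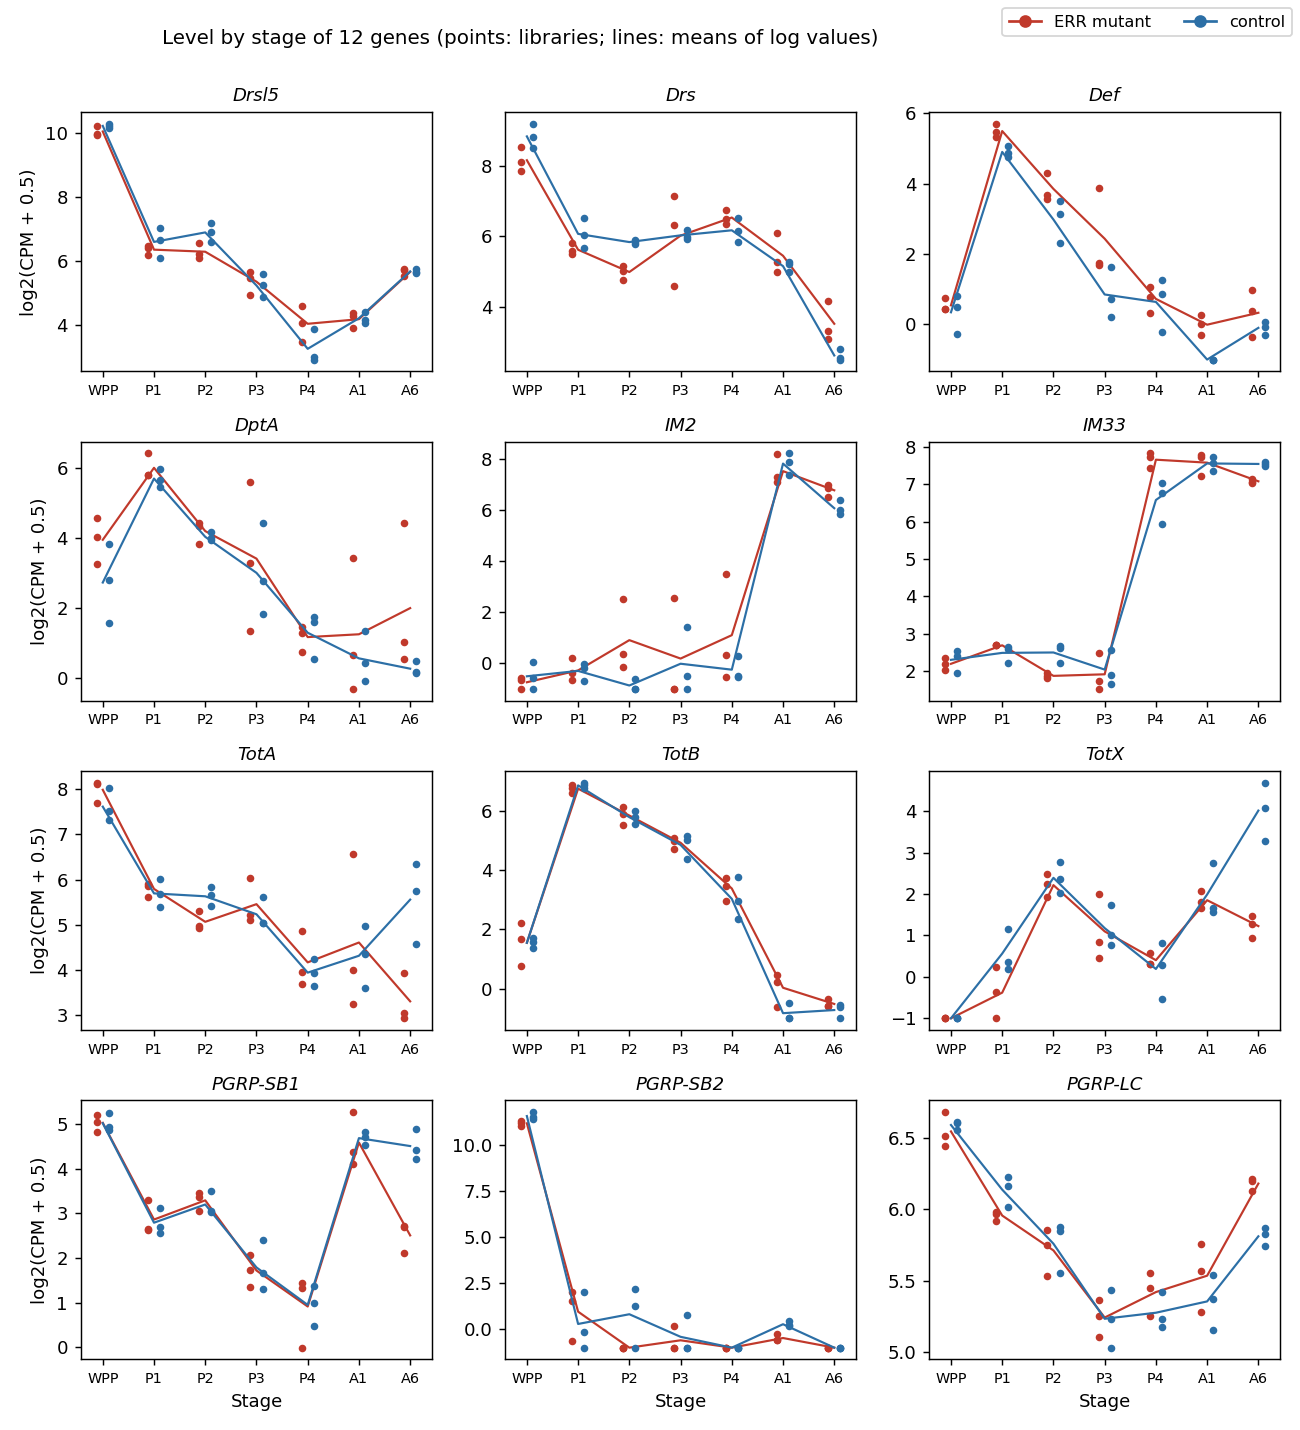
Level by stage, as log2(CPM + 0.5), of 12 genes from the 4 roles, with a point for each library (ERR mutant in red, to the left of control in blue) and lines through the means of the log values. The genotypes run together for most genes and stages, and TotA, TotX and PGRP-SB1 are lower in the mutant at A6. Points of the genotypes also lie apart at A6 for IM2, IM33, DptA and PGRP-LC, and at P4 for IM33.

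Levels of the inducible peptides varied more between libraries of a group than those of most genes. The biological coefficient of variation fitted over all 42 libraries had a median of 56.8% for the 18 antimicrobial peptide genes, 76.7% for the 8 IM genes, 42.2% for the 6 tested Turandots and 17.7% for the 11 tested PGRP genes, against 12.2% over all genes. Of the 43, 22 lay above the 90th percentile of all genes. PGRP-LE had the smallest value of the 43, at 6.31%, and Drsl3 the largest, at 173%. The value covers all stages, including groups with few or no counts, so it does not give the spread at a single stage. IM4, at 70.7%, had 143, 137.5 and 140.5 CPM in A6 controls, and 0.392, 7.50 and 0.603 CPM in P2 mutants.

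In several libraries many of these genes were high at once. A gene was counted as raised in a library where it lay at least 2-fold above both other libraries of its group (on CPM + 0.5) and at or above 1 CPM. In mutant P3 replicate 1 this held for 15 of the 43 genes (34.9%), against 1.48% of all genes. Mutant A1 replicate 1 and mutant A6 replicate 3 had 10 genes each (23.3%, against 0.592% and 0.38% of all genes), and mutant P4 replicate 1 and control P3 replicate 1 had 9 each (20.9%, against 1.36% and 1.31%). Mutant P2 replicate 2 had 5 (11.6%, against 0.527%). Of the 6 libraries with at least 5 raised genes, 5 were mutant and 1 was control, a description with no test.

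The set of raised genes differed between libraries. In both mutant A1 replicate 1 and mutant A6 replicate 3 they included AttA, AttB, AttC, CecC, DptA, DptB, Dro and Mtk, with no IM gene past the 2-fold limit. Several IM genes lay just under that limit in mutant A1 replicate 1, with IM3 at 305, 153 and 136 CPM and IM2 at 289, 155.5 and 134 CPM in A1 mutants. TotA and TotC were added at A1, and AttD and CecA2 at A6. DptA had 10.2, 1.07 and 0.310 CPM in A1 mutants, against 0.440, 2.04 and 0.861 CPM in A1 controls. At A6 it had 0.967, 1.55 and 20.8 CPM in mutants, against 0.610, 0.913 and 0.622 CPM in controls. In mutant P2 replicate 2 the raised genes were IM1, IM2, IM3, IM4 and IM23 alone, with IM2 at 0.785, 5.18 and 0.402 CPM in P2 mutants, against 0, 0.161 and 0 CPM in P2 controls. In the 2 P3 libraries and mutant P4 replicate 1, IM genes and other peptide genes were raised together. Dro was raised in all 5 of the libraries with at least 9 raised genes, and AttA, AttB, AttC and DptA in 4 of them. No library labelled WPP or P1 had more than 1 raised gene. Whether infection, wounding or handling differed between libraries is not given in the sources used here.

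**Figure D3:**
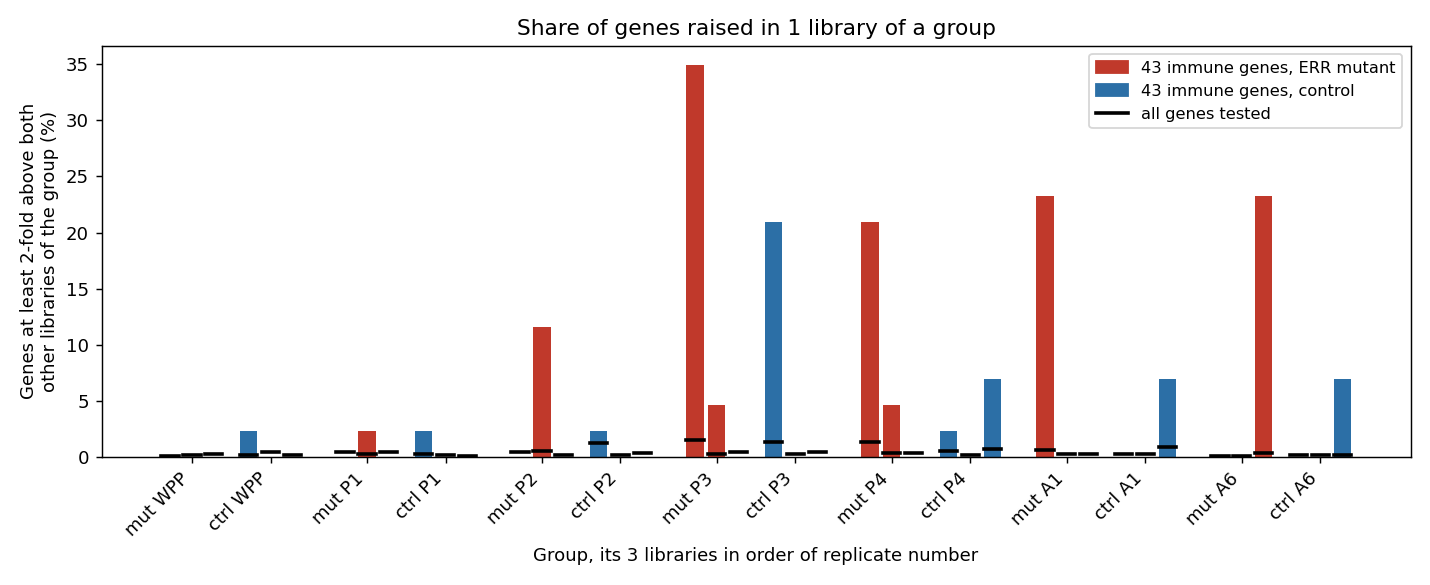
Percentage of the 43 tested immune genes (bars, ERR mutant in red and control in blue) that lay at least 2-fold above both other libraries of their group, for each of the 42 libraries, with the percentage over all tested genes as a black line. Bars reach 34.9% while the lines stay at or under 1.48%.

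Mutants were then compared with controls stage by stage, gene by gene, with edgeR's quasi-likelihood test, adjusted by Benjamini-Hochberg over all genes that passed the filter. At 4 of the 7 stages no immune gene passed: WPP (0 of 43, against 0.651% of all genes called), P1 (0, against 0.797%), P3 (0, against 0.446%) and A1 (0, against 2.9%). At an unadjusted p under 0.05 the counts at those stages were 1 (2.33%, against 6.37% of all genes), 4 (9.3%, against 10.3%), 2 (4.65%, against 5.74%) and 8 (18.6%, against 13.5%). DESeq2 called 0, 0, 1 (Def) and 3 (DptB, PGRP-SD and TotC). The share of all genes that DESeq2 called is not given here, so its counts are not read against one. The count at P1 was also 0 without mutant P1 replicate 1. At P2 2 passed (against 11.6% of all genes), at P4 1, which was higher (against 0.453% of all genes higher and 0.856% in either direction) and at A6 7 (against 11.4%).

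**Figure D4:**
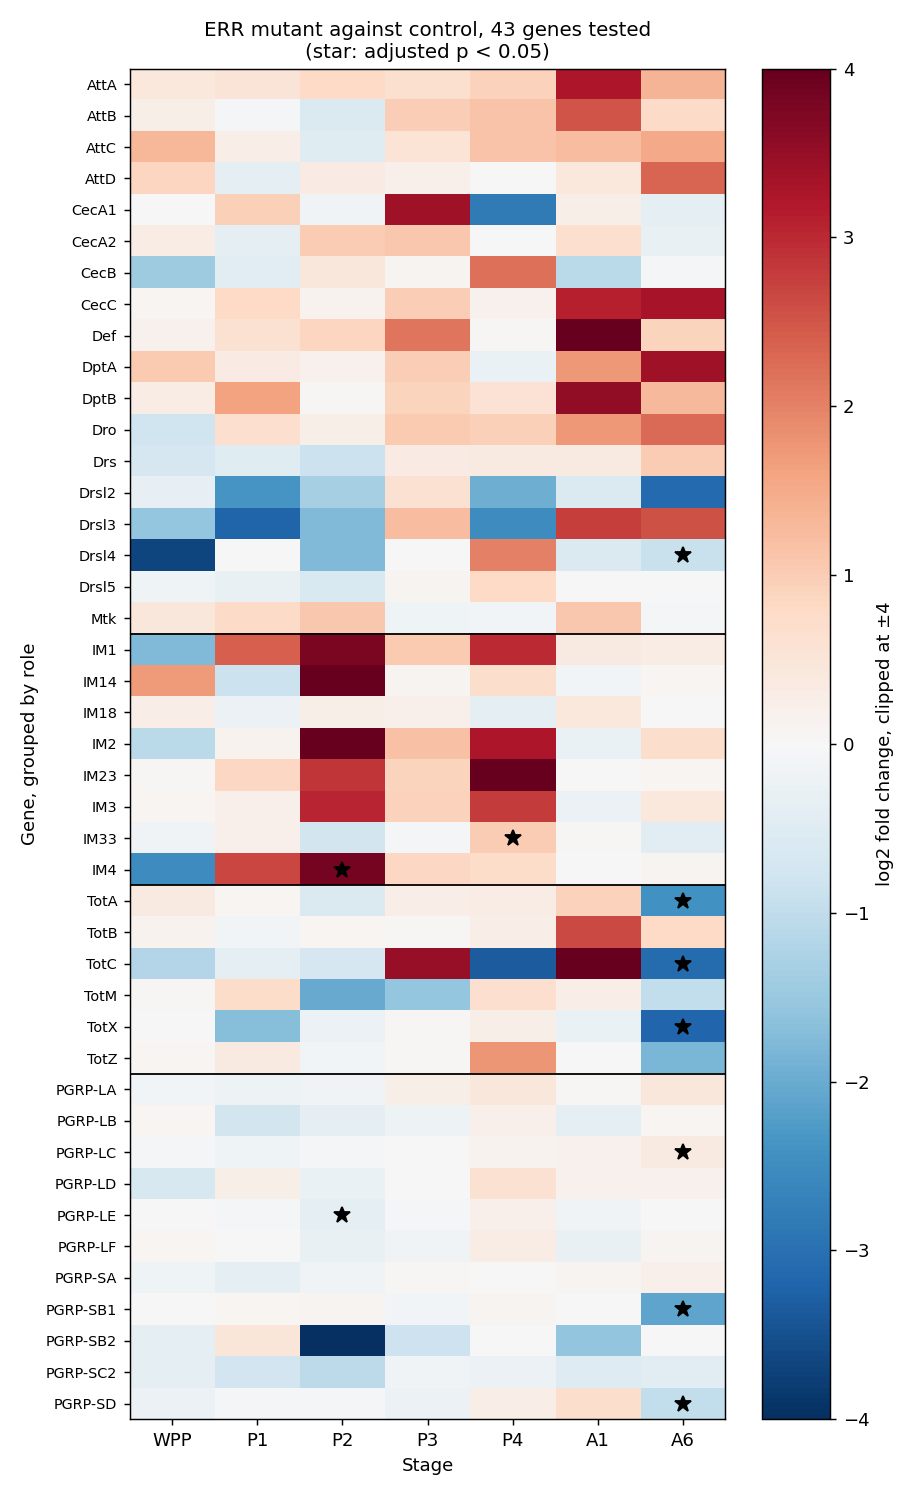
Log2 fold change, ERR mutant over control, of the 43 tested genes (rows, by role) at each of the 7 stages, clipped at 4 in either direction, with a star where the adjusted p was under 0.05. There are 10 stars, 7 of them at A6, and strong colours without a star belong to genes with few counts or a wide spread between libraries.

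Among genes that did not pass, some had mutant and control libraries apart, which was common over all genes. At P1 4.48% of all genes had every mutant library above every control library and 9.64% had them below, and at P2 7.9% and 15%. Of the 43 immune genes, 5 were above and 6 below at P1, and 5 above and 7 below at P2. At P1, Def had 39.5, 44.0 and 51.5 CPM in mutants, against 26.8, 28.6 and 33.4 CPM in controls (log2 fold change 0.60, SE 0.352, adjusted p = 0.556). At P3 it had 14.2, 2.74 and 2.83 CPM in mutants, against 2.60, 0.654 and 1.14 CPM in controls (log2 fold change 2.15, SE 0.558, adjusted p = 0.111). Every Def mutant library was above every control library at P1, P2, P3 and A1, and edgeR called Def at none of these stages. At A1 this rested on 3, 4 and 2 counts in mutants and 0 in controls. Over all genes 5.32% were above in this way at P3 and 12.5% at A1, against 1 and 2 of the 43 immune genes. Without mutant P3 replicate 1 the log2 fold change of Def at P3 was 0.90 (adjusted p = 1). Drsl5 at P2 had 95.2, 67.2 and 73.7 CPM in mutants, against 95.3, 120.0 and 146 CPM in controls (log2 fold change -0.62, SE 0.230, adjusted p = 0.082).

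At P2, PGRP-LE was slightly lower in the mutant, at 19.4, 19.2 and 16.9 CPM in mutants, against 25.1, 25.2 and 21.7 CPM in controls (log2 fold change -0.37, SE 0.118, adjusted p = 0.0349). The groups did not overlap, and the adjusted p lay between 0.0104 and 0.256 over the other fits. The call held without control P2 replicate 3 and was lost without each of the other 5 P2 libraries. IM4 was higher in the mutant, at 0.392, 7.50 and 0.603 CPM in mutants, against 0.143, 0 and 0.476 CPM in controls (log2 fold change 3.83, adjusted p = 0.0367). The groups overlapped, 1 mutant library was high, and without mutant P2 replicate 2 the value was 1.19 (adjusted p = 0.875). The call was also lost without each P2 control (adjusted p between 0.0629 and 0.133). Over the 8 IM genes the log2 fold change at P2 had its median at 3.41, or at 2.40 with genes at or under 3 counts in 1 group set at that bound, against -0.02 over all genes above that bound. That median includes the 5 genes raised in mutant P2 replicate 2, whose own median was 3.76 with that library and 1.12 without it. These 5 were picked for being high in that library, so a lower median without it was fixed by the choice.

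IM33 at P4 had 227, 210.4 and 172 CPM in mutants, against 60.4, 109 and 130.5 CPM in controls, 2.03-fold higher in the mutant (log2 fold change 1.02, SE 0.198, adjusted p = 0.00443). The 3 mutant libraries were all above the 3 controls. Without control P4 replicate 1 the value was 0.76 (adjusted p = 0.0838), and with only the 6 P4 libraries in the fit the adjusted p was 0.25. At A1 the genotypes overlapped, at 221, 212 and 148 CPM in mutants, against 213, 190.8 and 164 CPM in controls. At A6 the order was turned round, at 131, 139.9 and 134 CPM in mutants, against 194, 178 and 187 CPM in controls (log2 fold change -0.47, SE 0.195, adjusted p = 0.129). Other marker genes also differed at P4, where 0.856% of all genes were called in either direction. Of 6 male-enriched genes, 2 were lower, Acp36DE and Acp26Aa. The 6 summed to 469.8 to 477.6 CPM in mutants, against 424.5 to 934 CPM in controls. The yolk protein gene Yp3 was higher. The part of these marker genes in the IM33 value was not tested.

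At A6, 6 of the 43 genes were lower (14%, against 5.28% of all genes) and 1 was higher (2.33%, against 6.14%) in the mutant. The 6 were 3 Turandots, 2 PGRP genes and Drsl4. With edgeR no Attacin, Cecropin, Diptericin or IM gene was among the 7. DESeq2 called 9 genes, without TotC and with DptA, Dro and Drsl3 added, and its share over all genes is not given here.

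TotX had 2.26, 1.40 and 1.93 CPM in A6 mutants, against 16.5, 9.13 and 25.2 CPM in A6 controls, 9.08-fold lower (log2 fold change -3.18, SE 0.461, adjusted p = 1.53e-05). Mutant levels at A6 lay below the A1 mutant levels of 3.00, 2.67 and 3.72 CPM, while controls were higher at A6 than at A1. TotA had 7.09, 7.72 and 14.8 CPM in A6 mutants, against 53.4, 23.2 and 80.8 CPM in A6 controls, 5.33-fold lower (log2 fold change -2.42, SE 0.553, adjusted p = 0.00308). With only the 6 A6 libraries in the fit, its adjusted p was 0.0615. The mutant and control libraries did not overlap for TotX or TotA.

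TotC had 1.61, 2.53 and 2.42 CPM in A6 mutants, against 11.6, 2.19 and 42.2 CPM in A6 controls (log2 fold change -3.08, SE 0.982, adjusted p = 0.0403). The groups overlapped, and without control A6 replicate 3 the value was -1.67 (adjusted p = 0.399). Leaving out control replicate 1 or any mutant library also ended the call (adjusted p between 0.0508 and 0.143), as did DESeq2 (adjusted p = 0.0801) and a fit of the 6 A6 libraries alone (adjusted p = 0.182). TotB and TotZ, in the same cluster, were at or under 0.281 CPM in every A6 library, and TotF had no counts. TotM, on arm 2L, had 0.322, 1.83 and 1.93 CPM in mutants, against 1.98, 0.731 and 5.29 CPM in controls, which overlapped. Control A6 replicate 2 was the lowest and replicate 3 the highest control library for each of TotA, TotC, TotM and TotX.

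PGRP-SB1 had 5.97, 3.79 and 6.12 CPM in A6 mutants, against 21.1, 29.2 and 18.1 CPM in A6 controls, 4.304-fold lower (log2 fold change -2.11, SE 0.300, adjusted p = 6.65e-06). At A1 it had 38.2, 20.3 and 16.9 CPM in mutants, against 22.7, 27.95 and 25.6 CPM in controls, and the groups overlapped. PGRP-SD, a recognition protein linked to both Toll and Imd signalling, had 3.87, 2.25 and 3.38 CPM in A6 mutants, against 6.41, 6.58 and 5.60 CPM in A6 controls (log2 fold change -0.97, SE 0.291, adjusted p = 0.0251). Drsl4 had 27.1, 20.5 and 22.9 CPM in A6 mutants, against 51.6, 44.0 and 35.6 CPM in A6 controls (log2 fold change -0.90, SE 0.274, adjusted p = 0.0385). PGRP-LC, the transmembrane receptor of the Imd pathway, was the gene that was higher, at 73.7, 73.0 and 69.6 CPM in A6 mutants, against 52.9, 57.9 and 56.2 CPM in A6 controls (log2 fold change 0.37, SE 0.116, adjusted p = 0.0321). Groups did not overlap for any of these 4 genes. PGRP-SB1 and TotX passed in every other fit and with every A6 library left out in turn. PGRP-SD lost the call without control A6 replicates 1 or 2 or mutant A6 replicate 2 (adjusted p between 0.0733 and 0.173). Drsl4 kept it only without control A6 replicate 3, and PGRP-LC only without mutant A6 replicate 3, among the 6 omissions.

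**Figure D5:**
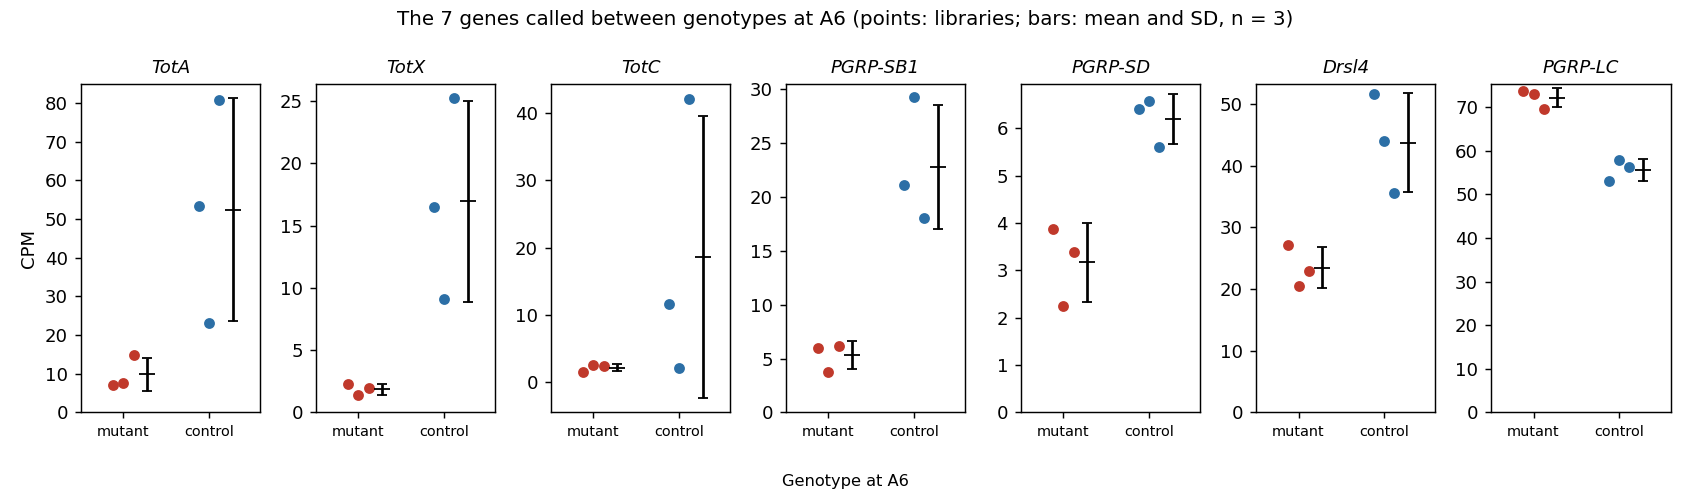
CPM at A6 of the 7 genes called between genotypes, with the 3 ERR mutant libraries (red) left of the 3 control libraries (blue) and the mean and SD beside them. Mutant points lie below control points for TotA, TotX, PGRP-SB1, PGRP-SD and Drsl4 and above them for PGRP-LC, while TotC overlaps.

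Several peptide genes were high in 1 A6 library. Mutant A6 replicate 3 had 9.51 CPM of AttA, 9.34 of AttC, 16.4 of DptB and 14.02 of Mtk, against at most 1.77, 1.69, 1.29 and 0.983 CPM in the other A6 mutants. In A6 controls the same genes reached at most 2.01, 2.33, 3.29 and 8.09 CPM. For the 10 genes raised in that library, the log2 fold changes centred on a median of 1.44 with it and -0.27 without it. Because the 10 were picked for being high there, a lower median without it was fixed by the choice. With it edgeR called 0 of them and DESeq2 called DptA and Dro. CecA1 was not among the raised genes, at 26.3, 21.6 and 36.4 CPM in A6 mutants, against 35.7, 39.6 and 34.1 CPM in A6 controls. Mtk, an antifungal peptide gene, had a log2 fold change of -0.0555 at A6 with all libraries and did not pass. Without mutant A6 replicate 3 the value was -2.80 (adjusted p = 0.00537 in edgeR). Mtk was one of the genes picked for being high in that library, so leaving it out lowered the value by the choice. No difference is concluded from it. The A6 count of lower genes was 5 without mutant A6 replicate 3, and 3 without control A6 replicate 1 or without mutant A6 replicate 2. At A1, TotC had 46.02, 0.890 and 1.39 CPM in mutants, against 0.660, 0.204 and 1.94 CPM in controls (adjusted p = 0.0573, and 0.951 without mutant A1 replicate 1). DptB at A1 had 23.3, 1.603 and 0.774 CPM in mutants, against 0.440, 0.612 and 1.08 CPM in controls (adjusted p = 0.0678, and 0.901 without mutant A1 replicate 1).

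Whether the genotype difference itself changed between stages was tested with the 6 interaction terms of the same fit. The test passed for 4 of 43 genes (9.3%, against 12.4% of all genes): PGRP-SB1 (adjusted p = 0.00184), IM33 (0.00328), TotX (0.0096) and TotA (0.0393). The log2 fold changes of PGRP-SB1 lay between -0.12 and 0.11 at the first 6 stages and at -2.11 at A6. Those of TotA were 0.36, 0.08, -0.57, 0.27, 0.29, 0.92 and -2.42 from WPP to A6. The TotA interaction passed in 26 of the 42 fits that left out 1 library, and without control A6 replicate 3 its adjusted p was 0.142.

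The genes that carry these signals were read from lists of pathway members. Of 21 tested Toll pathway genes, 1 was higher and 5 were lower in P2 mutants, against 2.78% and 8.79% of all genes. The NF-kappaB factors Dif and dl, their inhibitor cact, the kinase pll and the ligand spz were lower, and the recognition protein gene GNBP1 was higher. Dif averaged 26.7 ± 4.35 CPM in P2 mutants and 46.2 ± 2.22 CPM in P2 controls (log2 fold change -0.79, adjusted p = 3.54e-05). At A6, GNBP3, a sensor of fungal glucans, and nec, a serpin that restrains Toll activation, were lower and dl was higher. Over all genes 5.28% were lower and 6.14% higher at A6. At the other 5 stages edgeR called 0 of the 21 (0 to 4 at an unadjusted p under 0.05), and DESeq2 called 1 at P1 and 0 at the rest.

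Of 16 tested Imd pathway genes, Rel was the 1 that passed edgeR's test, at 2 stages and in opposite directions. Over all genes 8.79% were lower at P2 and 6.14% higher at A6. At P2 it averaged 34.5 ± 4.26 CPM in mutants and 49.7 ± 2.84 CPM in controls (log2 fold change -0.53, adjusted p = 0.00716). At A6 it averaged 94.2 ± 7.71 CPM in mutants and 67.7 ± 0.568 CPM in controls (log2 fold change 0.48, adjusted p = 0.0133), and its interaction passed (adjusted p = 0.00326). The median log2 fold changes of the Toll list were -0.07 at P2 and 0.02 at A6, and those of the Imd list -0.06 and 0.05, against -0.004 and 0.009 over all genes.

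Of 10 tested JAK-STAT genes, et, which encodes a shortened receptor that opposes the cytokine receptor dome, was lower at P2 (8.59 ± 1.07 CPM in mutants and 16.2 ± 2.02 CPM in controls, adjusted p = 0.00275) and at A1. Su(var)2-10 and Ptp61F were higher at P2, and Socs44A was lower at A1. Over all genes 2.78% were higher and 8.79% lower at P2. In either direction 2.9% were called at A1 and 11.4% at A6. At A6 edgeR and DESeq2 each called 0 of these 10 genes, with 1 at an unadjusted p under 0.05 in edgeR. The listed gene upd3 did not pass the filter. Activity of the pathway was not measured, and its part in the Turandot levels was not tested. Of 10 stress kinase genes, edgeR and DESeq2 called 0 at every stage, with 0 to 3 at an unadjusted p under 0.05 in edgeR. Over all genes edgeR called from 0.446% (P3) to 11.6% (P2). The list median at A6 was 0.05 for JAK-STAT and 0.22 for the stress kinases.

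Of 22 tested immune effector genes with other symbols, 2 were lower and 3 higher at A6, against 5.28% and 6.14% of all genes. Anp, which encodes the andropin peptide of the male ejaculatory duct, averaged 84.7 ± 18.04 CPM in A6 mutants and 205.8 ± 8.81 CPM in A6 controls (log2 fold change -1.28, adjusted p = 0.00291). The iron carrier gene Tsf1 was higher at P2 and A1 (809 ± 261.5 CPM in A1 mutants and 301 ± 32.9 CPM in A1 controls) and lower at A6 (247.6 ± 33.8 CPM in mutants and 420.5 ± 72.8 CPM in controls). The 3 higher genes at A6 were vir-1, LysP and CG13749. SPH93, which encodes an inactive serine protease homologue, was 2.36-fold lower in P1 mutants and 2.16-fold lower in P2 mutants. Of 14 tested heat shock genes, Hsp22 was higher at A1 (120.1 ± 87.4 CPM in mutants and 14.04 ± 1.17 CPM in controls) and Hsp67Bc at A6, and 0 were called at the other 5 stages by either tool (0 to 3 at an unadjusted p under 0.05 in edgeR). Over all genes 2.9% were called in either direction at A1, and 6.14% were higher at A6.

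Marker genes of other tissues moved at P2, P4 and A6, where immune genes passed, and at A1, where edgeR called 0 of the immune genes. Over all genes 6.14% were higher and 5.28% lower at A6, and 2.78% and 8.79% at P2. At A1 2.9% were called in either direction. At A6, 5 of 6 flight muscle genes were higher (summed level 5600 to 6164 CPM in mutants, against 3138 to 3335 CPM in controls), as were 3 of 6 eye genes (7050 to 8931 CPM in mutants, against 4812 to 5181 CPM in controls). Lower at A6 were 4 of 10 midgut genes (3679 to 4567 CPM in mutants, against 6612 to 7328 CPM in controls) and 3 of 14 haemocyte genes (536 to 568.8 CPM in mutants, against 645.9 to 733.5 CPM in controls). Of 6 male-enriched genes, 3 were lower at A6: Acp36DE, Acp26Aa and Ebp. The 6 summed to 4226 to 5454 CPM in mutants, against 8435 to 9077 CPM in controls. Ebp alone averaged 2388 ± 445.1 CPM in A6 mutants and 5098 ± 236.4 CPM in A6 controls. The list's other genes, lncRNA:roX1, lncRNA:roX2 and Mst87F, were not called. Of 6 larval fat body genes, 2 were lower (3.51 to 4.35 CPM in mutants, against 19.9 to 43.8 CPM in controls), and each group had 1 of the 6 with no counts. At P2, 4 of 14 haemocyte, 3 of 6 flight muscle and 3 of 6 eye genes were lower, with haemocyte sums of 949 to 1166 CPM in mutants, against 1169 to 1792 CPM in controls, where 1 gene had no counts. At A1, 3 of 14 haemocyte genes were lower (992 to 1459 CPM in mutants, against 1667 to 1818 CPM in controls). The part of these tissues in the differences of TotA, TotX, TotC, PGRP-SB1, PGRP-SD, Drsl4, PGRP-LC, IM4 and PGRP-LE was not tested.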

How the data were processed

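RNA of whole flies was measured in 42 poly(A) libraries made with a stranded Illumina kit, per the labels. Tools listed in the submitters' processing notes are DESeq2 1.22.2, RSEM 1.3.1, STAR 2.7.0f and cutadapt 1.16, and the build listed is dm6. The annotation, filters and strand setting of the counting are not stated there. The authors deposited estimated counts per gene, which were already whole numbers and were used as they stand. The normalized signal deposited by the authors gave scaling factors for 1 alternative. The FPKM values deposited by the authors were used for levels compared between genes. The deposited log-scale values were not used.

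The test was edgeR's (version 4.0.16, R 4.3.3): 1 robust quasi-likelihood fit of 14 groups with TMM scaling after filterByExpr (13672 of 15038 genes, 28 residual degrees of freedom). All p-values were adjusted by Benjamini-Hochberg over all genes in each comparison, and a gene is called at an adjusted p under 0.05. Comparisons were mutant against control within stages, successive stages within controls, and the genotype by stage interaction. Alternatives were DESeq2's size factors, the deposited factors, no filter, no robust step, only the 6 libraries compared, DESeq2 1.42.0 and leaving out single libraries. Library totals of 4308848 to 7737140 counts leave genes under 1 CPM with a few counts. Over 42 pairs of libraries of 1 group the chi-square statistic per gene was 2.77 to 67.5, so none was counted as a duplicate. Where a group had 0 counts, the fold printed is a lower limit computed with 3 counts in place of the 0 and covers counting error only.

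Genes were chosen by symbol, and values in each library are given for genes called between genotypes, for the 2 with the highest mean CPM in each role and for those with an interaction. The genes, the pathway and marker lists and the tests were chosen with earlier results of these data known, and genes described otherwise were chosen after their values were seen. IM4 and IM14 left the effector list as members. Of the lists, wntD, upd3, Hsp70Aa, Yp1 and Yp2 did not pass the filter. Positions are from the Ensembl annotation of BDGP6 (99.4% of identifiers found). Scripts were tested on simulated data.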

Additional observations from a re-analysis of the deposited data

Results flagged for a closer look

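The genotype difference of 4 genes differed between the 7 stages by the interaction test of edgeR's quasi-likelihood fit, adjusted over all genes. For TotA (adjusted p = 0.0393) every mutant value was under every control value at P2 and A6, and the groups overlapped at the other 5 stages. TotX (adjusted p = 0.0096) had log2 fold changes between -1.71 and 0.23 at the 5 stages from P1 to A1, and -3.18 at A6. At WPP it had no counts in either genotype. For PGRP-SB1 (adjusted p = 0.00184) the 3 mutant libraries lay below the 3 controls at A6 and overlapped them at the other 6 stages. For IM33 (adjusted p = 0.00328) mutant libraries lay above the controls at P1 and P4 and below them at P2 and A6. Its log2 fold changes were 0.21, 1.02, -0.72 and -0.47 at these stages, and the P4 difference alone passed edgeR's test. Log2 fold changes of TotA also took both signs, with 0.92 at A1 and -2.42 at A6. The share of the 43 immune genes with an interaction, 9.3%, lay under the 12.4% of all genes. The test for 1 outlying value in a group was not run, since it needs at least 4 libraries.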

How the results depend on the processing

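No paired analysis was possible because the labels give no replicate numbers. No called gene turned its direction in any alternative. Medians over genes raised in 1 library changed sign without it: 1.44 and -0.27 (mutant A6 replicate 3), 0.975 and -1.48 (mutant P3 replicate 1), 1.78 and -0.176 (mutant P4 replicate 1), on the log2 scale with and without the library. Those genes were picked for being high in that library, so a fall without it was fixed by the choice and is no test. TotC at A6 lost its call with DESeq2 (adjusted p = 0.0801) and with the 6 libraries alone (0.182). Counts of higher and lower genes between genotypes moved as follows. At P2, higher genes numbered 2 with DESeq2's size factors, 3 with the deposited factors, 3 with DESeq2 and 0 with only the 6 libraries, and lower genes 0 with DESeq2's size factors and 2 with DESeq2. At P3, DESeq2 called 1 higher. At P4, the 6 libraries gave 0 higher. At A1, higher genes numbered 1 without the robust step and 3 with DESeq2, and 1 was lower without the filter. At A6, higher genes numbered 0 with DESeq2's size factors, 4 with DESeq2 and 5 with the 6 libraries. For controls at P3 against P2, higher genes numbered 2 with DESeq2's size factors, 0 without the filter, 3 with DESeq2 and 0 with the 6 libraries, and at A6 against A1 the 6 libraries gave 5 lower. DESeq2 called 8 interactions, and its share over all genes is not given here. The causes were not tested. With 1 library left out, counts of higher and lower genes lay at 0 to 3 and 0 to 2 at P2, 0 to 1 and 0 at P3, 0 to 1 and 0 at P4, 0 to 2 and 0 to 1 at A1, and 0 to 2 and 3 to 6 at A6, with 0 at WPP and P1. For the control steps they lay at 9 to 12 and 11 to 12 (P1), 2 to 4 and 5 to 8 (P2), 0 to 1 and 6 to 8 (P3), 3 to 4 and 5 to 8 (P4), 16 to 20 and 3 to 5 (A1), and 5 to 8 and 2 to 5 (A6). Interactions, left out 1 library at a time over all 42 (chosen after seeing the data), numbered 3 to 6. Depth limits IM1, IM2, IM3 and IM23 in controls before A1, which rest on at most 13 counts a group.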
